A study of Homo sapiens with 6 samples.

Results

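The genes described here are PLA2G4C, the other phospholipase A2 genes PLA2G4A, PLA2G2A, PLA2G10 and PLA2G6, and the prostaglandin genes PTGS1, PTGS2, PTGES, HPGD and PTGER4. They are 10 of the 60676 genes listed for HT29 cells, a human colorectal adenocarcinoma line with the genotype label WT. All 10 were found by symbol in the gencode annotation, and all had reads in every library. PLA2G4C was chosen on its difference after histidine depletion in these libraries. Its values in the comparisons with histidine-depleted cells are therefore a description without a test. The other 9 genes were chosen by their place in the same pathway, with earlier results of these libraries known.

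RNA was sequenced after 48 h in control medium (untreated), in medium without histidine (Hdepl) or in medium without tryptophan (Wdepl), with 2 libraries per condition. The Hdepl medium was built on RPMI and the Wdepl medium on DMEM F-12, and the sequencing methods name only a control medium without its base, so a depletion and its base medium cannot be told apart. For the proteomics of the same depletions full RPMI was the control, and whether this was so for RNA-seq is not stated. Both depletion media held dialyzed serum, and the serum of the RNA-seq control medium is not stated. A change seen in both depletions therefore cannot be told apart from an effect of the serum. Nothing says that the 2 libraries of a condition came from separate cultures, so p-values measure the spread between these libraries, which may be technical. The comparison with tryptophan depletion asks whether a change follows the loss of histidine or also the loss of another amino acid. In bulk RNA, fewer cells that express a gene and less RNA per cell cannot be told apart.

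Phospholipases A2 cut a fatty acid from the middle position of membrane phospholipids. When that fatty acid is arachidonic acid, cyclooxygenases convert it to prostaglandin H2, from which terminal synthases make prostaglandin E2 and other prostanoids. In the colon, prostaglandin E2 acts on epithelial cells through receptors such as EP4, and it is broken down by 15-hydroxyprostaglandin dehydrogenase, an enzyme that is often low in colorectal tumors. Lipoxygenases feed the same arachidonic acid into leukotrienes and related lipids.

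The libraries held 46390819 to 64388876 reads, and levels are given as normalized counts, which are reads divided by a size factor of the library. The summed level of 11 intestinal epithelial markers was 450700 to 478800 in untreated, 585800 to 619100 in Hdepl and 634500 to 638400 in Wdepl cells. The higher sum in Hdepl than in untreated cells came mostly from KRT8, KRT19 and KRT20, while 6 of the 11 markers had lower levels than in both untreated libraries: KRT18, VIL1, CDX1, CDX2, CDH17 and LGALS4. LGALS4 went from 54360 and 56690 to 17580 and 19740 normalized counts, CDX2 from 470.8 and 458.3 to 182.3 and 172.6, and CDX1 to 0. The mast cell markers KIT, TPSAB1 and CPA3 were at 0 in every library. The sum over 7 leukocyte and mast cell markers was 118.5 to 141.8, 54.4 to 65.4 and 370.5 to 385.7 in the 3 conditions, and most of it came from CD14. The sum over 6 fibroblast and endothelial markers was 115 to 128 in untreated, 78.9 to 88.9 in Hdepl and 82.5 to 95.6 in Wdepl cells. The part of these shifts in the results was not tested.

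PLA2G4C encodes a calcium-independent member of the cytosolic phospholipase A2 group and lies on the minus strand at chr19:48047843-48110817 (GRCh38). It had 31 and 38 reads in the untreated libraries and 11648 and 9831 in the Hdepl libraries. As normalized counts, these were 33.5 and 37.6 in untreated and 10525 and 9960 in Hdepl cells, a ratio of the means of 288. The log2 difference was 8.13 ± 0.0807 (SE, n = 2 per condition), the third highest of the 18288 genes that could be tested.

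In Wdepl cells PLA2G4C stayed at a low level. It had 54.0 and 75.5 normalized counts, against 33.3 and 37.2 for the same untreated libraries in the table of that depletion. Both Wdepl libraries lay above both untreated libraries, by 1.84-fold in the means. This log2 difference of 0.84 ± 0.236 (SE, n = 2 per condition) passed the test (limma with Benjamini-Hochberg adjustment over all genes, adjusted p = 8.64e-04), although it shares its untreated libraries with the choice of the gene. Without the second Wdepl library the difference was 0.61 and the adjusted p was 0.0829, the highest of the alternatives, which began at 6.24e-06. Scaled together, the Hdepl libraries held 155 times the Wdepl level.

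PLA2G4C-AS1, a gene on the opposite strand at chr19:48061371-48064945 that shares 4.93% of the exonic bases of PLA2G4C, had 0 reads in the untreated and Wdepl libraries and 34 and 15 reads in the Hdepl libraries. The use of strand in counting is not given in the sources used here, so reads over the shared bases could belong to either gene.

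Among the genes around PLA2G4C, 6 protein-coding genes with a start within 250 kb could be tested. Of these 4 passed in Hdepl and 5 in Wdepl cells, where 77.3% and 70.8% of all genes tested passed. In Hdepl cells EMP3, a membrane protein gene 211 kb upstream, rose by 2.34 on the log2 scale (limma, adjusted p = 8.00e-16). LIG1, the DNA ligase of replication 59.8 kb upstream, fell by 1.91 (adjusted p = 1.51e-19). CARD8 and ODAD1 also fell, by 0.13 and 1.19, while ZSWIM9 and ZNF114 did not pass the test. In Wdepl cells 4 of the 6 were higher, where 36.1% of all genes were, and LIG1 again fell by 3.19 (adjusted p = 7.07e-94). On the downstream side, CABP5 had 0 normalized counts in untreated and 5.24 ± 0.252 (SD, n = 2) in Hdepl cells, too few to be tested.

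The 5 protein-coding genes whose pattern was most like that of PLA2G4C, by Euclidean distance of centred log2 values over the 6 libraries and among 11417 genes, were MARCHF4, IL7R, RELN, CD274 and IFITM5. Their distances were 1.06, 1.89, 1.99, 2.17 and 2.17. MARCHF4, a membrane ubiquitin ligase gene, IL7R, the interleukin-7 receptor gene, and RELN, the reelin gene, had at most 3 reads in each untreated library. CD274, which encodes PD-L1, held 37.3 and 32.0 normalized counts in untreated, 2815 and 2433 in Hdepl, and 15.0 and 20.2 in Wdepl cells. IFITM5 held 7.68 and 8.99, then 741 and 726, then 17.1 and 15.6. These are descriptions of similar values, selected for that similarity.

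In Hdepl against untreated cells, all 9 other genes could be tested, and all 9 passed the test, 4 higher and 5 lower. Over all 18288 genes tested, 77.3% passed, 39.1% higher and 38.2% lower, so a pass alone did not set these genes apart. The size of the change was at least 1 on the log2 scale for 8 of the 9, which were chosen with earlier results of these libraries known. Among all genes tested, 32.5% passed with a change of that size. PTGS1, PTGS2 and HPGD lay close to this limit, at -1.05, 1.04 and -1.05. Without Hdepl library 1 their changes were under it, at -0.92, 0.95 and -0.99. After quantile normalization PTGS1 and HPGD were under it, at -0.90 and -0.83. In Wdepl against untreated cells 9 of the 10 genes could be tested, PLA2G4C included, and 7 passed, 4 higher and 3 lower. PLA2G4C was among the 4 higher, and its untreated values were part of the choice of the gene. There 70.8% of the 17960 genes tested passed, 36.1% higher and 34.8% lower, and 20.5% passed with a change of at least 1, as did 4 of these 9. Both comparisons use the same untreated libraries. In Hdepl against Wdepl cells all 9 genes other than PLA2G4C passed, 4 higher and 5 lower in Hdepl, where 76.6% of 18278 genes passed, 38.7% higher and 38.0% lower. PTGER4, among the higher, was open to this test only through its Hdepl level.

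**Figure D1:**
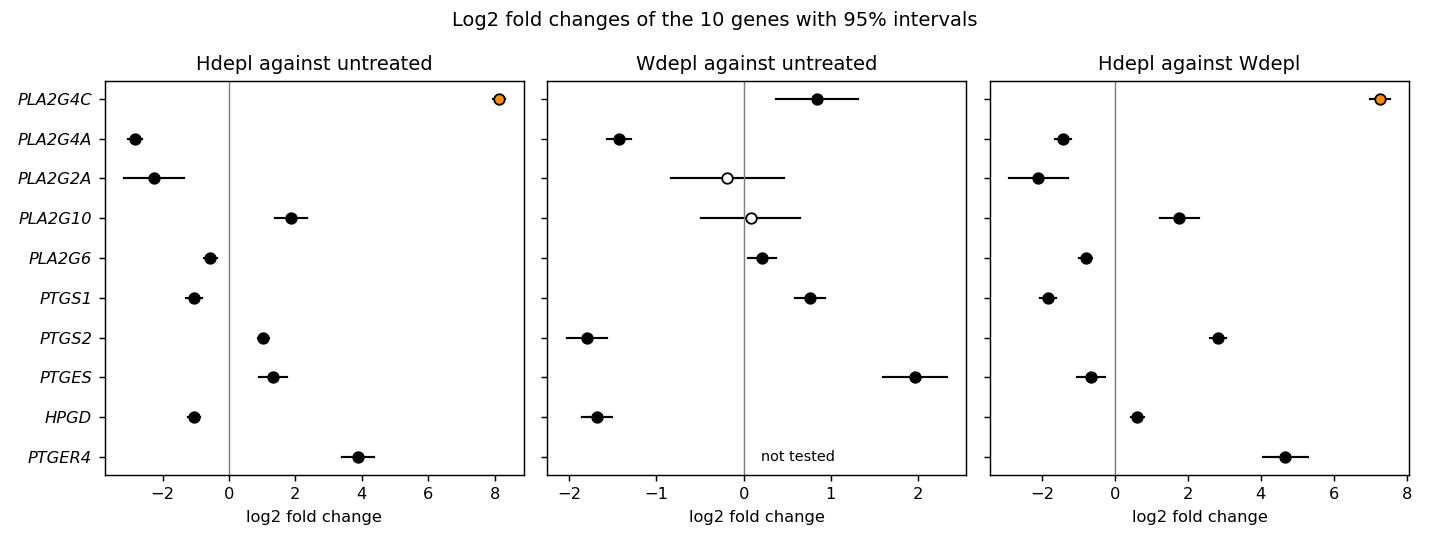
Log2 fold changes with 95% intervals (horizontal axes) of the 10 genes in the 3 comparisons, filled black where the test was passed, white where not, and orange for PLA2G4C where no test was made. PTGS1 and PTGS2 lay on opposite sides of 0 in both comparisons with untreated cells, and changed sides between them.

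PLA2G4A encodes cytosolic phospholipase A2 alpha, the calcium-dependent enzyme that prefers arachidonic acid, at chr1:186828949-186988981 on the plus strand. It held 1285 and 1335 normalized counts in untreated cells and 159 and 213 in Hdepl cells, a level 7.05-fold lower. The log2 change was -2.83 ± 0.103 (SE, n = 2 per condition; limma, adjusted p = 9.63e-18). In Wdepl cells it held 505 and 462 normalized counts, a change of -1.42 ± 0.0691 (adjusted p = 1.15e-42). The size of such p-values depends on the method. For the Hdepl change the adjusted p was 0.00109 with limma without the trend and 1.93e-104 with DESeq2. These p-values therefore do not rank the depletions. PLA2G4A thus fell in both depletions, more in Hdepl than in Wdepl cells. Its Hdepl level was below its Wdepl level by 1.42 on the log2 scale (adjusted p = 1.46e-09).

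Compared per length, as RPKM (reads scaled by exon length and by library total), PLA2G4A stood at 8.91 ± 0.0178 and PLA2G4C at 0.105 ± 0.00578 (SD, n = 2) in untreated cells. In Hdepl cells the order was turned, with 1.11 ± 0.224 for PLA2G4A and 26.6 ± 1.09 for PLA2G4C. Of the summed per-length level of 17 genes, namely the cytosolic and secreted groups and PLA2G6, PLA2G4C took 0.527% to 0.600% in untreated, 79.2% to 79.9% in Hdepl and 0.699% to 0.995% in Wdepl libraries. PLA2G4A took 46.4% to 49.0%, 2.77% to 3.89% and 14.0% to 15.0%. PLA2G12A, a secreted enzyme, took 30.2% to 30.5%, 5.86% to 5.88% and 49.3% to 50.2%. These shares hold within the 17 genes only. Other genes with phospholipase A2 activity lay outside the sum, among them PLAAT3 at 96.2, 35.3 and 69.3 RPKM and PNPLA8 at 5.63, 17.9 and 12.6 RPKM in untreated, Hdepl and Wdepl cells.

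The other cytosolic genes were tested where their counts allowed. PLA2G4F fell in Hdepl cells, from 446 and 448 to 66.9 and 82.1 normalized counts (log2 change -2.58 ± 0.131, limma adjusted p = 5.78e-15). It rose in Wdepl cells, to 1158 and 1052 (1.32 ± 0.0722, adjusted p = 2.23e-37). PLA2G4B was the other cytosolic gene past the test in both depletions, higher by 1.15 and 1.62. Its untreated libraries, however, lay at 20.6 and 3.95 normalized counts and so spread widely. The Hdepl libraries lay at 21.7 and 22.3, close to untreated library 1. The rise in Hdepl cells thus rests on untreated library 2.

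Secreted phospholipases A2 are small calcium-dependent enzymes, several of which act on bacterial or lipoprotein lipids in the gut. PLA2G2A (chr1:19975431-19980416, minus strand), the antibacterial group IIA enzyme of Paneth cells, was scarce, with 18 and 31 reads in untreated and 4 and 5 in Hdepl libraries. It fell by 2.27 ± 0.435 on the log2 scale in Hdepl cells (SE, n = 2 per condition; limma, adjusted p = 5.08e-05), and by 1.40 with a pseudocount of 8. In Wdepl cells its 20.8 and 21.6 normalized counts lay between the untreated values of 19.3 and 30.3, and the interval of the log2 difference ran from -0.83 to 0.46 (adjusted p = 0.621).

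PLA2G10 (chr16:14672548-14694308, minus strand) encodes the group X enzyme, which releases arachidonic acid efficiently from cell membranes. It rose from 38.9 and 23.7 to 120.2 and 107.4 normalized counts in Hdepl cells (log2 change 1.87 ± 0.228, limma adjusted p = 7.34e-08). Its Wdepl values of 29.1 and 35.1 lay within the untreated range, with an interval of the log2 difference from -0.49 to 0.65 (adjusted p = 0.811). The annotation holds 11 pseudogenes of its name, none with more than 17 reads over the 6 libraries.

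Of 8 further secreted genes only PLA2G2F and PLA2G12A could be tested, and both moved in opposite directions in the depletions. PLA2G2F went from 66.0 and 66.2 to 22.6 and 16.2 normalized counts in Hdepl cells, and to 614 and 582 in Wdepl cells. These are log2 changes of -1.74 ± 0.261 and 3.17 ± 0.122 (limma, adjusted p = 1.88e-06 and 1.28e-53). PLA2G12A went from 1533 and 1494 to 610 and 584 in Hdepl cells (-1.34, adjusted p = 4.01e-15) and to 3010 and 3009 in Wdepl cells (1.00, adjusted p = 1.72e-39).

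PLA2G6 (chr22:38111495-38214778, minus strand) encodes the calcium-independent enzyme of membrane remodelling. It held 490 and 444 normalized counts in untreated and 328 and 301 in Hdepl cells, a fall of 0.57 ± 0.095 on the log2 scale (SE, n = 2 per condition; limma, adjusted p = 8.41e-06). In Wdepl cells it held 537 and 535, higher by 0.21 ± 0.0821 (adjusted p = 0.0158). This small rise was lost with DESeq2 (adjusted p = 0.147), with limma without the trend (0.0760), and without untreated library 2 (0.134), Wdepl library 1 (0.0884) or Wdepl library 2 (0.0792). Over all alternatives its adjusted p ran from 0.00159 to 0.147. Its exons share bases with MAFF and a noncoding gene on the opposite strand, 4.0% and 18.8% of them. MAFF had 1192 to 2983 reads per library, against 297 to 595 for PLA2G6, and the part of reads over the shared bases in the changes of PLA2G6 was not tested.

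The counts by group that follow are small and stand against 77.3% of all genes past the test in Hdepl and 70.8% in Wdepl cells. Among the related patatin-like genes, 4 of 6 passed in Hdepl cells, 3 higher and 1 lower, and 6 of 6 in Wdepl cells, 4 higher and 2 lower. PNPLA8, a mitochondrial and peroxisomal calcium-independent phospholipase, rose in both, from 1590 and 1676 to 5914 and 5901 normalized counts in Hdepl (1.85, limma adjusted p = 8.21e-20) and to 3743 and 3887 in Wdepl cells (1.24, adjusted p = 5.77e-50). PNPLA2, the triglyceride lipase of lipid droplets, rose by 1.18 in Hdepl cells (adjusted p = 2.33e-16) and fell by 0.15 in Wdepl cells (adjusted p = 0.00258). Of the lysosomal, platelet-activating-factor-hydrolysing and PLAAT genes, 2 rose and 4 fell of 8 tested in Hdepl cells, and 2 rose and 5 fell of 8 in Wdepl cells. PLAAT3, the most abundant of these per length in untreated cells, fell by 1.26 and by 0.40 (adjusted p = 1.81e-16 and 1.43e-13).

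Of 4 genes for a receptor and regulators of phospholipases A2 (PLA2R1, PLAA, ANXA1 and S100A10), 3 fell in Hdepl cells and 4 in Wdepl cells. PLA2R1, the receptor that binds secreted phospholipases A2, fell from 1819 and 1700 to 211 and 272 normalized counts in Hdepl cells (log2 change -2.87 ± 0.0926, limma adjusted p = 9.14e-19), and by 0.37 in Wdepl cells (adjusted p = 4.24e-09). S100A10, a partner of annexin A2, fell by 0.85 in Hdepl and by 1.90 in Wdepl cells (adjusted p = 2.91e-13 and 8.31e-75). ANXA1, the gene of annexin A1, which is known as a phospholipase A2 inhibitor, did not pass in Hdepl cells (-0.03, adjusted p = 0.628) and fell by 0.48 in Wdepl cells.

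The cyclooxygenase genes moved in opposite directions. PTGS2, the inducible cyclooxygenase (chr1:186671791-186680922, minus strand), held 424 and 416 normalized counts in untreated and 920 and 813 in Hdepl cells. This was a rise of 2.06-fold (log2 1.04 ± 0.0811, SE, n = 2 per condition; limma, adjusted p = 2.33e-11). In Wdepl cells PTGS2 fell to 132 and 107 normalized counts (-1.80 ± 0.117, adjusted p = 8.28e-31). The Hdepl libraries held 7.10 times the Wdepl level (log2 2.82 ± 0.105, adjusted p = 8.34e-14).

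PTGS1, the constitutive cyclooxygenase (chr9:122370530-122395703, plus strand), showed the opposite order. It fell from 361 and 344 to 154 and 186 normalized counts in Hdepl cells (-1.05 ± 0.117, limma adjusted p = 1.43e-08) and rose to 636 and 554 in Wdepl cells (0.76 ± 0.0856, adjusted p = 1.09e-14). As RPKM, PTGS1 and PTGS2 were 1.19 ± 0.0715 and 1.50 ± 0.0577 in untreated, 0.504 ± 0.0679 and 2.71 ± 0.242 in Hdepl, and 1.93 ± 0.205 and 0.410 ± 0.0639 (SD, n = 2) in Wdepl cells. PTGS2 was the more abundant in Hdepl cells and PTGS1 in Wdepl cells.

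PTGS2 and PLA2G4A are neighbours on chromosome 1 whose starts lie 148 kb apart on opposite strands. In Hdepl cells PTGS2 rose and PLA2G4A fell, and in Wdepl cells both fell. PACERR, a noncoding gene on the opposite strand at the start of PTGS2, had 5 and 7 reads in untreated, 10 and 10 in Hdepl and 4 and 1 in Wdepl libraries, too few to be tested.

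The promoters of PTGS2 and PTGER4 are shown because these were the cyclooxygenase and the receptor gene that rose in Hdepl cells. The sequences are the 250 bases before the start in RefSeq (GRCh38.p14), at chr1:186680424-186680673 on the minus strand and chr5:40679665-40679914 on the plus strand. Capitals mark motifs that were searched for on both strands. In PTGS2 they are TATAAA, 32 to 27 bases before the start, and TGACG, the half-site of CREB and ATF factors, 58 to 54 bases before it and read on the other strand. In PTGER4 they mark a match to the NF-kB motif, 244 to 235 bases before the start. This motif was searched only in the strict form GGGRNWYYCC (R is A or G, N any base, W A or T, Y C or T). Near matches are not marked, such as GGGACTACCC in the PTGS2 sequence, so an unmarked promoter may still hold a site.
PTGS2: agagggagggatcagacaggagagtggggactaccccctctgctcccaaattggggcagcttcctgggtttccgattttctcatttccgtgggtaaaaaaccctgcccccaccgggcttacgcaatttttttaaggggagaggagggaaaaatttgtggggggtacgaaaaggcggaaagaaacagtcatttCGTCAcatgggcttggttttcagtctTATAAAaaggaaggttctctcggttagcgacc
PTGER4: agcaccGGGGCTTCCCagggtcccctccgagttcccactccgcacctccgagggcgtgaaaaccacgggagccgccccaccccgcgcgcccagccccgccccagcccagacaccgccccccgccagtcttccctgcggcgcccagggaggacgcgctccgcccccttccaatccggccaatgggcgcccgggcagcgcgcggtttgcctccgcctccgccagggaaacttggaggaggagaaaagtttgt

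Over 35114 promoters of this length, 10.7% held TATAAA, 21.2% TGACG, 1.65% the full site TGACGTCA, 5.21% the NF-kB motif, and 3.14% TGATGNAA, the element of C/EBP and ATF factors. The full site holds the half-site, so these shares overlap. Of the 10 genes, 9 were in the promoter table, all but PLA2G4C. Their only other matches were TGACG in HPGD, 77 to 73 bases before the start, and TATAAA in PTGS1, 208 to 203 bases before it, both on the other strand. A match is a description of letters and not of a bound factor, and the lack of a match to these strict forms is not the lack of a site.

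PTGES (chr9:129738331-129753042, minus strand) encodes the inducible microsomal prostaglandin E synthase that is often coupled to PTGS2. It rose in both depletions, from 34.6 and 44.5 to 109 and 91.2 normalized counts in Hdepl cells (log2 change 1.33 ± 0.208, SE, n = 2 per condition; limma, adjusted p = 3.44e-06). In Wdepl cells it reached 155.9 and 153.8 (1.97 ± 0.188, adjusted p = 1.67e-18). The Wdepl level was the higher, by 0.66 on the log2 scale (adjusted p = 0.00305), so PTGES rose most where PTGS2 fell.

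Of the other terminal synthases tested, 3 of 4 fell and 1 rose in Hdepl cells, and 3 fell and 2 rose of 5 in Wdepl cells. TBXAS1, the thromboxane synthase, fell from 288 and 285 to 65.1 and 71.9 normalized counts in Hdepl cells (-2.05 ± 0.140, limma adjusted p = 1.95e-12) and by 0.34 in Wdepl cells (adjusted p = 0.00394). AKR1C3, an aldo-keto reductase that makes prostaglandin F2 alpha and also reduces steroids, fell by 0.71 in Hdepl cells (adjusted p = 1.24e-10). In Wdepl cells it rose from 3570 and 3813 to 17272 and 18009 normalized counts (2.26 ± 0.0469, adjusted p = 1.56e-85).

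HPGD (chr4:174490175-174523154, minus strand), the gene of 15-hydroxyprostaglandin dehydrogenase, fell in both depletions. It held 701 and 752 normalized counts in untreated, and 335 and 366 in Hdepl cells (-1.05 ± 0.0851, SE, n = 2 per condition; limma, adjusted p = 4.80e-11). It held 231 and 217 in Wdepl cells (-1.68 ± 0.0895, adjusted p = 1.14e-38). Its level was higher in Hdepl than in Wdepl cells by 0.62 on the log2 scale (adjusted p = 5.55e-06).

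The other genes of prostaglandin breakdown and transport were lower in Hdepl cells in 5 of 5 tested, where 38.2% of all genes were lower and 77.3% passed. PTGR1, the reductase that follows HPGD, fell from 2972 and 3132 to 1467 and 1559 normalized counts (-1.01, limma adjusted p = 4.12e-14). ABCC4, an exporter of prostaglandins, fell by 1.08 (adjusted p = 7.69e-16). In Wdepl cells 1 rose and 2 fell of the 5, where 70.8% of all genes passed. PTGR1 was the one that rose, to 8409 and 8310 normalized counts (1.47, adjusted p = 2.26e-62), and ABCC4 fell by 0.26 (adjusted p = 2.09e-07).

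PTGER4 (chr5:40679915-40693735, plus strand) encodes EP4, a prostaglandin E2 receptor that signals through cyclic AMP. Its untreated level was low, at 11 and 10 reads, and its Hdepl level was 204 and 163 reads. In normalized counts it rose from 11.9 and 9.88 to 184 and 165, which is 16.0-fold (log2 3.89 ± 0.233, SE, n = 2 per condition; limma, adjusted p = 1.47e-13). After PLA2G4C this was the largest rise of the 10 genes, at rank 174 of 18288. With a pseudocount of 8 the log2 change was 3.27. Both Wdepl libraries held 6 reads, below both untreated libraries, and the gene was not tested there because its mean was under 10. Against Wdepl cells the Hdepl level was higher by 4.67 ± 0.291 on the log2 scale (adjusted p = 9.95e-11). The gene was open to that test only through its Hdepl level, so this p-value adds little to the description.

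Of 8 further prostanoid receptor genes only PTGDR2 could be tested, and it fell in both depletions, by 1.49 and 2.74 on the log2 scale (limma, adjusted p = 9.99e-04 and 2.75e-07). It had at most 26.7 normalized counts. The genes of EP1, EP2 and EP3 had too few reads in these libraries to be tested.

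In the lipoxygenase and leukotriene branch, 2 rose and 3 fell of 8 genes tested in Hdepl cells, and 4 rose and 3 fell of 8 in Wdepl cells. ALOXE3, an epidermal-type lipoxygenase, rose from 9.74 and 16.8 to 1147 and 1122 normalized counts in Hdepl cells (log2 change 6.36 ± 0.181, limma adjusted p = 9.25e-20). It reached 38.5 and 37.8 in Wdepl cells (1.51, adjusted p = 2.32e-05). ALOX5, which starts leukotriene synthesis, fell by 1.43 in Hdepl cells (adjusted p = 8.29e-14) and rose by 0.32 in Wdepl cells (adjusted p = 4.80e-06). LTA4H, the leukotriene A4 hydrolase, fell in both, by 1.25 and 1.11 (adjusted p = 6.69e-17 and 8.86e-49). EPHX2, the soluble epoxide hydrolase, fell by 1.99 in Hdepl cells and by 0.44 in Wdepl cells (adjusted p = 5.82e-11 and 0.00199).

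Arachidonic acid is activated by acyl-CoA synthetases and put back into phospholipids by acyltransferases. Of 11 genes of these enzyme groups tested, 3 rose and 6 fell in Hdepl cells, and 4 rose and 7 fell in Wdepl cells. The preference of each enzyme for arachidonic acid was not tested, so these counts do not measure its return to phospholipids. ACSL4, the synthetase that prefers arachidonic acid, rose from 6020 and 6448 to 18297 and 17862 normalized counts in Hdepl cells (1.54 ± 0.0512, limma adjusted p = 1.66e-18) and fell by 0.47 in Wdepl cells (adjusted p = 3.47e-17). MBOAT1, a lysophospholipid acyltransferase, fell from 428 and 396 to 63.3 and 61.8 in Hdepl cells (-2.70, adjusted p = 2.63e-15) and rose by 0.31 in Wdepl cells (adjusted p = 8.24e-04). MBOAT2 fell in both, by 1.81 and 1.89 (adjusted p = 4.55e-11 and 1.58e-24), and its levels in the depletions did not pass the test of their difference (0.06 ± 0.154, adjusted p = 0.729). Not all acyltransferase genes fell in Hdepl cells. MBOAT7 rose there by 0.44 (limma adjusted p = 4.45e-08) and fell by 0.25 in Wdepl cells (adjusted p = 1.08e-06). LPCAT3 did not pass in Hdepl cells (-0.13, adjusted p = 0.110) and fell by 0.58 in Wdepl cells (adjusted p = 1.48e-14).

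Over all 77 pathway genes other than the 10, 51 could be tested in Hdepl cells and 41 passed, 12 higher and 29 lower. That is 80.4%, against 77.3% of all genes tested, with a median log2 change of -0.42 against 0.01 over all genes tested. In Wdepl cells 48 of 53 passed, 21 higher and 27 lower, or 90.6% against 70.8% of all genes, with a median of -0.15 against 0.01. Between the depletions 46 of 53 differed (86.8%, against 76.6% of all genes), 18 higher and 28 lower in Hdepl. These lists were chosen with results of these libraries known. PLA2G4B, PTGDR2 and MBOAT7 were named only to complete the counts of their groups, after their values were seen.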

How the data were processed

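RNA-seq of HT29 cells was used, with 2 libraries for each of 3 conditions. The authors aligned reads to GRCh38 with STAR 2.7.10a, counted them on exons (HTSeq 2.0.5, with an earlier gencode release than the one used here for names and exon lengths), divided the counts by DESeq2 size factors and deposited the resulting signal (normalized counts) as 1 table per depletion with shared untreated libraries. The methods speak of protein-coding genes, while the deposited tables list noncoding genes too. Adapters carried molecular identifiers; their use, and that of strand and multi-mapped reads, is not given in the sources used here.

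Dividing each value by the step of its library gave whole reads for 100% of values (tolerance 0.1 reads). Of 60676 genes, 60357 were found in gencode 44. The test was that of limma 3.58.1 (R 4.3.3, two-sided, with a mean-variance trend). It ran on log2(normalized count + 1) over genes whose mean reached 10, with Benjamini-Hochberg adjustment over all genes and a threshold of 0.05. Fold changes on this scale understate those of low genes. Each depletion was tested within its own table, and Hdepl against Wdepl on the reads of all 6 libraries scaled by median-of-ratios size factors. Replicates differed beyond sampling noise (chi-square per degree of freedom 8.77, 4.03 and 1.85). The size of very small adjusted p-values depended strongly on the method, so they do not rank genes or depletions.

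The 10 genes and the pathway lists were chosen with earlier results of these data known. Beside them, the text names from each list up to 3 genes per depletion with the largest change among genes that passed and whose higher group averaged 100 or more, the 5 patterns nearest to PLA2G4C among protein-coding genes with a group mean of at least 100, antisense and overlapping genes, and neighbours within 250 kb. Not every gene so selected is reported. On simulated counts limma recovered 100% of changes of 1 and 2 on the log2 scale, and 3.85% of its calls were false in the Hdepl simulation (18076 genes) and 4.31% in the Wdepl simulation (17882 genes). The simulation changed only 200 genes, with expected counts of at least 100, in equal numbers up and down. All genes had the same small dispersion. Its rates do not carry over to these libraries, where most genes passed, or to genes with few reads. Alternatives were no filter, a filter at 50, pseudocounts of 0.5 and 8, no trend, quantile normalization, edgeR 4.0.16, DESeq2 1.42.0, a replicate block, all libraries in 1 fit, a fold limit and each library left out. Tables and plots were made with matplotlib 3.10.9, numpy 2.4.6 and pandas 2.3.3 in Python 3.11.15.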

Additional observations from a re-analysis of the deposited data

Results flagged for a closer look

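The depletions were compared directly, on the reads of all 6 libraries scaled together (limma, adjusted over 18278 genes, of which 76.6% passed). The differences below are log2 Hdepl minus Wdepl, and each passed this test. PLA2G4C is not among them, since it was chosen on its difference after histidine depletion.

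Opposite directions against untreated cells were seen for PTGS2, which differed by 2.82 (higher in Hdepl, lower in Wdepl), and for PTGS1 at -1.83 and PLA2G6 at -0.80 (lower in Hdepl, higher in Wdepl). The rise of PLA2G6 in Wdepl cells was small and did not pass the test with DESeq2, without the trend, or without untreated library 2 or either Wdepl library, so its opposite direction is not firm. The same order as for PTGS1 was seen for PLA2G4F at -3.91, PLA2G2F at -4.92, PLA2G12A at -2.36, AKR1C3 at -2.98, PTGR1 at -2.49, ALOX5 at -1.76 and MBOAT1 at -3.02. The order of PTGS2 was seen for ACSL4 at 1.99 and PNPLA2 at 1.32.

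Changes in the same direction but of different size were seen for PLA2G4A at -1.42, HPGD at 0.62, PTGES at -0.66, PNPLA8 at 0.60, PLA2R1 at -2.52, S100A10 at 1.03, TBXAS1 at -1.73, ABCC4 at -0.84, ALOXE3 at 4.83, EPHX2 at -1.56, LTA4H at -0.17 and PLAAT3 at -0.87. The neighbours of PLA2G4C belong here too, with LIG1 at 1.26 and EMP3 at 1.65. PLA2G2A at -2.10 and PLA2G10 at 1.77 passed against untreated cells in Hdepl only, and PTGER4 at 4.67 was tested against untreated cells in Hdepl only. PTGER4 was open to the direct test only through its Hdepl level.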

How the results depend on the processing

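Of 414 counts of genes under the alternatives, 392 stayed within 1.5 times the reported count. Most of the others come from the fold limit of 1 on the log2 scale, which leaves fewer genes by construction: 5949 genes (3002 higher, 2947 lower) in Hdepl, 3674 (1801, 1873) in Wdepl and 5798 (2915, 2883) between the depletions. It left 24, 18 and 22 other pathway genes (6 higher and 18 lower, 12 and 6, 7 and 15). It left 4 of the 10 genes in Wdepl, 1 of them higher, and 3 lower ones between the depletions. Leaving out 1 library gave 2 to 4 of the 10 genes higher in Wdepl, with the lowest number without Wdepl library 2. The log2 difference of PLA2G4C in Hdepl cells was 7.88 with a pseudocount of 8 and 7.98 after quantile normalization. With a pseudocount of 8 the changes were smaller by over 1.5 times for PLA2G2A, at -1.40 and PTGER4, at 3.27, in Hdepl against untreated cells, and at -1.27 and 3.72 against Wdepl cells. In Wdepl cells, with 1 library left out, the log2 change was -0.27 to 0.43 for PLA2G10 and -0.50 to 0.12 for PLA2G2A, with the sign turned without untreated library 2 for both and without Wdepl library 2 for PLA2G10 (-0.05). No alternative moved the median of all genes by over 0.1. The median of the other pathway genes kept its sign, and moved furthest without Hdepl library 1 (-0.589), after quantile normalization (-0.545) and with a filter at 50 (-0.541) in Hdepl cells, from -0.421, and with a filter at 50 (-0.256) in Wdepl cells, from -0.152. Replicate numbers did not pair the libraries (correlation of deviations 0.0428, 0.00294 and -0.0399), and a replicate block gave 14432, 12766 and 14073 genes in the 3 comparisons and moved no call of the 10. Precision is limited by the 2 libraries per condition and by the 10 to 45 reads per untreated library of PLA2G4C, PLA2G2A, PLA2G10, PTGES and PTGER4.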
